A study of Helianthus annuus with 12 samples.

Results

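The genes described here encode the protein parts of the cytosolic ribosome in sunflower (Helianthus annuus) seeds. A gene was taken when the description of its best protein database match named a 40S or 60S ribosomal protein, or a protein of the S or L series with the ending e of the eukaryotic names, and named no plastid, mitochondrion, 30S, 50S or kinase. FPKM, fragments per kilobase of gene scaled to the mapped fragments of the library, also had to be 1 or more in 3 or more of the 12 libraries. Of 198 descriptions that matched, 188 belonged to genes with expression values and 172 of these genes reached the minimum, out of 48882 genes with values and 30020 genes tested. The 172 genes fell into 55 for proteins of the small subunit (40S), 115 for proteins of the large subunit (60S) and 2 for NMD3, an adapter that carries 60S subunits out of the nucleus and that the words of the rule also caught. They named 20 proteins of the 40S and 36 of the 60S, and 41 of these 56 proteins had several genes. Ribosomal proteins described in other words lay outside the rule, so the set need not hold every protein or gene of either subunit. A gene called single for its protein is single within this set. Measured by their descriptions, 7 of the 172 also carried the name of another protein, and 73 shared their best database match with another of the 172, so that how reads were divided among close copies is uncertain for them. The names looked for included NMD3, Mak16 and L18a-like protein.

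The groups were seeds of cultivar 86-1 at 27 and 17 days after flowering (DAF) and those of cultivar L-1-OL-1 at the same stages. Each group had 3 libraries. The series set seed development in sunflowers of high and low oleic acid content side by side. Per the labels, oleic acid built up fast at 17 DAF and was about stable at 27 DAF, and no label says which cultivar holds more of it. Whether libraries of 1 group stem from different plants is not said in the labels, and the p-values cover the spread among these libraries alone.

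A ribosome joins a small subunit, which reads the messenger RNA, to a large subunit, which forms the peptide bond. Each subunit is an RNA core dressed with many proteins that are needed in equal number, and plants hold several genes for most of these proteins. Cells that grow, divide or fill with storage protein make many ribosomes, and the making of ribosomes is known to respond to the TOR kinase pathway, which acts through S6 kinase on the 40S protein S6.

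Read numbers cannot be had from FPKM values, which summed to 605655 to 683903 per library. Pearson's r across genes ranged from 0.931 to 0.974 between replicates, except in the 17 DAF group of L-1-OL-1. There replicate 1 stood apart. It had r of 0.784 to 0.861 with replicates 2 and 3, which had 0.944 with each other, and 0.833 to 0.860 with the libraries of 86-1 at 17 DAF. Of the 172 ribosomal genes, 152 were higher in this replicate than in both others of its group, with a median ratio of 2.11 to their mean. Counts of called ribosomal genes that use L-1-OL-1 at 17 DAF are given with and without it. Unless stated, shares called among all tested genes are from the main fit, so counts from other fits lack a matching share. Genes of seed storage proteins took 0.853% to 34.4% of the FPKM total per library. No threshold was set for this list, so these values describe the 12 libraries and do not test the seed label.

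Ribosomal protein genes were among the most abundant in these seeds. Their mean FPKM over the 12 libraries had a median of 98.9, against 5.10 for all tested genes, and 86 of the 172 had a mean above 100. Summed over the 172 genes, they took 1.24%, 1.47% and 1.88% of the FPKM total in 86-1 at 27 DAF and 3.27%, 5.38% and 4.44% in 86-1 at 17 DAF. In L-1-OL-1 they took 3.53%, 3.68% and 4.39% at 27 DAF and 4.29%, 1.87% and 2.15% at 17 DAF. The 3 libraries of 86-1 at 27 DAF were lower than every library of 86-1 at 17 DAF and of L-1-OL-1 at 27 DAF, while at 17 DAF replicate 1 of L-1-OL-1 lay within the range of 86-1. The median FPKM over the genes was 39.5 to 62.9 at 27 DAF against 107 to 203 at 17 DAF in 86-1. In L-1-OL-1 it was 88.0 to 113 at 27 DAF against 60.7 to 146 at 17 DAF. In such whole-seed samples, fewer cells of a type and less of this RNA per cell cannot be told apart.

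**Figure D1:**
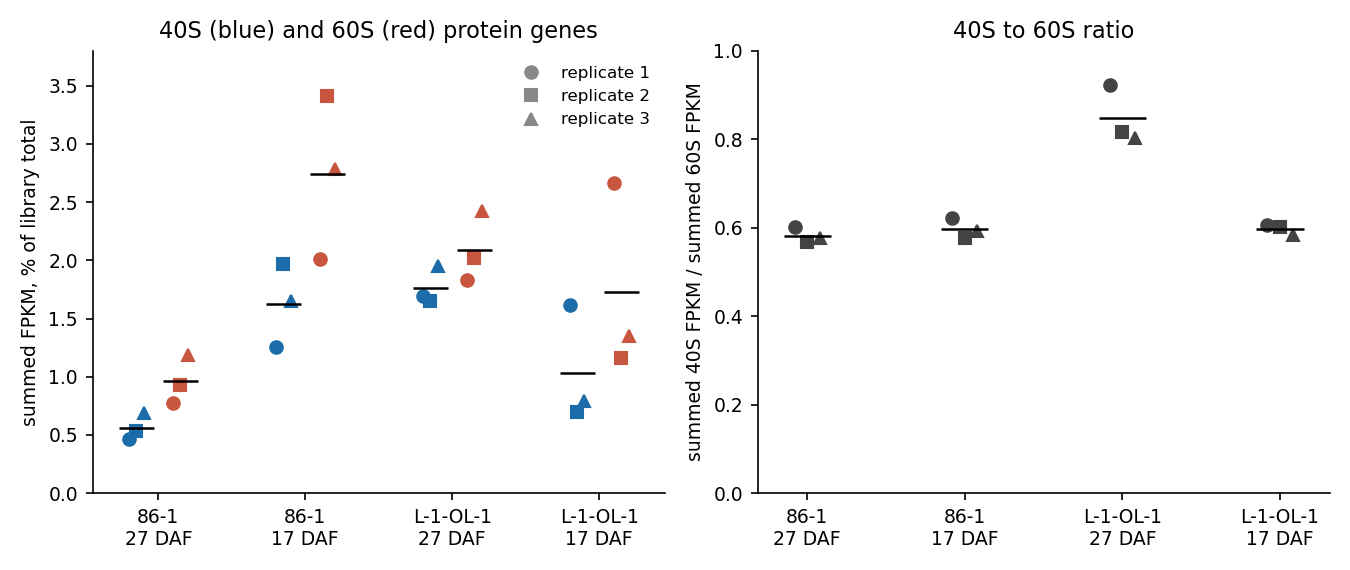
Left, summed FPKM of the 55 genes for 40S proteins (blue) and the 115 genes for 60S proteins (red) as a percentage of each library's FPKM total; right, the ratio of the 40S sum to the 60S sum. Symbols are libraries and black bars are means of 3; the 27 DAF libraries of L-1-OL-1 have ratios of 0.803 to 0.923 and the other 9 libraries 0.569 to 0.622.

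The most abundant member was gene44855 for S6, with a mean of 532 FPKM over the 12 libraries, and the next was gene35835 for S14, a protein of the 40S platform, with 423. They were followed by gene11052 for S8 (331), gene29557 for S27a, which is made fused to ubiquitin (313), gene120 for L19, which helps bridge the subunits (311), gene1928 for L10, which joins the 60S late in its assembly (309.8), gene56712 for S17 (301) and gene13297 for SA, the relative of the animal laminin receptor (297). At the other end 14 members had a mean below 10 FPKM. Just inside the minimum lay the L12 genes Helianthus_annuus_newGene_22596 and Helianthus_annuus_newGene_22597, with a third-highest FPKM of 1.09 and 1.54, and gene78301 with 2.93. The description of gene78301 reads L18e/L15P and was counted under L18, which need not be its protein. Just outside the minimum lay Helianthus_annuus_newGene_35583 for L26 (0.873), Helianthus_annuus_newGene_14510 for L10 (0.697) and Helianthus_annuus_newGene_28190 for NMD3 (0.450). Of the 172, 5 reached the minimum only through the libraries of 1 cultivar, so that the filter itself selected for a difference between the cultivars: Helianthus_annuus_newGene_22597, Helianthus_annuus_newGene_22596 and Helianthus_annuus_newGene_10471 through 86-1, and Helianthus_annuus_newGene_20299 and Helianthus_annuus_newGene_29023 through L-1-OL-1. Their values are given as a description with no test, and they are among the counts of called members.

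In 86-1 nearly the whole set was lower at 27 DAF than at 17 DAF. Differences are given as log2 differences ± standard error on log2(FPKM + 1), a scale that shrinks the change of low genes, and a gene is called where limma's p, after Benjamini-Hochberg adjustment across the 30020 tested genes, is under 0.05. Of the 172 genes 130 fell and 1 rose, against 14.1% of all tested genes called lower and 4.62% called higher, and the median difference was -1.47 against -0.20 over all tested genes. The 40S genes had 49 of 55 called lower with a median of -1.52, and the 60S genes 81 of 115 called lower and 1 higher with a median of -1.45. In 144 of the 172 every library at 27 DAF was below every library at 17 DAF, which held for 22.9% of all tested genes. Among the 56 proteins the summed FPKM of the genes was lower at 27 DAF for 55 (log2 ratio of group means between -2.17 for S3 and 0.30 for L27a).

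The steepest called falls were spread over both subunits. The gene Helianthus_annuus_newGene_18382, described as L28 and as the yeast 60S assembly factor Mak16, had 14.9, 3.45 and 14.3 FPKM at 27 DAF and 41.8, 88.1 and 66.2 FPKM at 17 DAF (-2.63 ± 0.50, adjusted p = 0.00385). The L6 gene gene2781 had 34.5, 39.3 and 50.6 FPKM at 27 DAF and 142, 272 and 206 FPKM at 17 DAF (-2.26 ± 0.44, adjusted p = 0.00441). The L44 gene gene19496, whose protein lies at the exit site for spent transfer RNA in yeast, had 16.9, 26.3 and 31 FPKM at 27 DAF and 80.4, 136 and 129 FPKM at 17 DAF (-2.18 ± 0.43, adjusted p = 0.00487). In each of these the 27 DAF libraries lay well under those of 17 DAF, and none of the calls was lost when any 1 library was left out. On the 40S side, S3 lines the entry of the messenger RNA channel, and its single gene gene24526 had 49.2, 61.7 and 73.6 FPKM at 27 DAF and 180.0, 367 and 283 FPKM at 17 DAF (-2.11 ± 0.46, adjusted p = 0.00791). The S4 gene gene40689 had 78.6, 77.8 and 97.4 FPKM at 27 DAF and 304, 438 and 335 FPKM at 17 DAF (-2.06 ± 0.43, adjusted p = 0.00649). The S26 gene gene14485, for a protein at the channel's exit, had 10.1, 13.1 and 15.4 FPKM at 27 DAF and 36.1, 80.1 and 68.4 FPKM at 17 DAF (-2.11 ± 0.48, adjusted p = 0.0103), a call lost without replicate 2 of 86-1 at 17 DAF (adjusted p = 0.0559).

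All 8 of the most abundant members were called lower at 27 DAF in 86-1. The calls of gene1928 for L10 (-1.93 ± 0.42) and gene56712 for S17 (-1.60 ± 0.34) held without any 1 library. The other 6, which include S6 gene44855 (-1.62 ± 0.41) and S14 gene35835 (-0.99 ± 0.30), were each lost without replicate 2 or 3 of 86-1 at 17 DAF and without replicate 1 or 2 of 86-1 at 27 DAF (adjusted p of 0.0577 to 0.142 in limma), and L19 gene120 also without replicate 2 of L-1-OL-1 at 27 DAF (0.0523) and gene35835 without any 1 of its 3 replicates (0.0525 to 0.063). The only member called higher at 27 DAF was gene52859, 1 of 5 genes for L18a, described with its family further on. The count of lower calls moved the most with single libraries: it was 31 and 47 without replicates 2 and 3 of 86-1 at 17 DAF, and 43 and 68 without replicates 1 and 2 of 86-1 at 27 DAF, while the median difference stayed between -1.71 and -1.25. Scaling by the median of ratios left 77 lower calls and quantile normalization 66, with medians of -1.20 and -0.999.

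Genes of dividing cells also fell in 86-1. Of 215 such genes (histones, cyclins, kinesins and replication proteins) 124 were called lower and 2 higher at 27 DAF, against the 14.1% and 4.62% of all tested genes. Without any 1 library 81 to 146 were called lower, the fewest without replicate 2 of 86-1 at 17 DAF. Their sum was 0.298% to 0.414% of the FPKM total at 27 DAF and 0.658% to 1.68% at 17 DAF. Late embryogenesis abundant (LEA) genes, whose proteins guard seeds as they dry, took 2.29% to 4.23% at 27 DAF and 0.359% to 0.573% at 17 DAF, with 25 of 67 called higher and 6 lower (19 to 28 and 4 to 12 without any 1 library, 12 lower without replicate 1 of 86-1 at 17 DAF). In L-1-OL-1, LEA genes took 5.24% to 7.52% at 27 DAF and 0.548% to 4.175% at 17 DAF. There 18 were called higher and 25 lower (13 to 28 and 17 to 25 without any 1 library), against 20.4% and 22.3% of all tested genes. The part of either in the ribosomal result was not tested.

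In L-1-OL-1 few members were called between the stages, most of them higher at 27 DAF. Of the 172 genes 27 were called higher and 5 lower at 27 DAF than at 17 DAF, where 20.4% and 22.3% of all tested genes were called higher and lower, and the median difference was 0.21 against -0.00125 over all tested genes. The share called higher, 15.7%, was thus below that of all tested genes, and so was the share called lower, 2.91%. Of the 40S genes 15 of 55 were called higher and 1 lower (median 0.40), and of the 60S genes 11 of 115 were called higher and 4 lower (median 0.13). Without replicate 1 of L-1-OL-1 at 17 DAF, 55 were called higher and 3 lower with a median of 0.61, among them 27 higher and 1 lower of the 40S genes (median 0.87) and 28 higher and 2 lower of the 60S genes (median 0.48). The share of all tested genes called in that fit is not given, so the 55 cannot be set against such a share. With that replicate as the only library of its group, 9 were called higher and 38 lower with a median of -0.55, the lone library being assumed to vary as the other groups do. The counts were 14 higher and 7 lower without replicate 2 of this group, and 17 and 3, 16 and 4, and 14 and 4 without replicates 1, 2 and 3 of L-1-OL-1 at 27 DAF. In this cultivar 90 of 215 genes of dividing cells were called lower at 27 DAF and 18 higher. The counts were 65 and 13 without replicate 1 at 17 DAF, 126 and 18 with it as the only library of its group, 74 and 10 without replicate 2 at 17 DAF, and 58 and 15, and 55 and 13, without replicates 1 and 3 at 27 DAF. These genes took 0.299% to 0.363% of the FPKM total at 27 DAF and 0.493% to 1.00% at 17 DAF. Storage protein genes had 21 of 43 called lower and 5 higher, 21 and 5 without replicate 1 at 17 DAF, 13 and 5 without replicate 2 there, and 9 and 3 in a fit of these 6 libraries. They took 31.0%, 18.5% and 0.965% in the replicates at 17 DAF against 0.853% to 2.75% at 27 DAF. The part of either in the ribosomal result was not tested.

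Some members rose well beyond that spread. The S6 gene gene23358 had 820.4, 673 and 696 FPKM at 27 DAF and 85.8, 111 and 175 FPKM at 17 DAF in L-1-OL-1 (2.61 ± 0.31, adjusted p = 7.62e-05). The S8 gene gene75658 had 124, 132 and 148 FPKM at 27 DAF and 43.4, 31.5 and 44.7 FPKM at 17 DAF (1.74 ± 0.29, adjusted p = 0.000746). In both, all 3 libraries at 27 DAF exceeded those at 17 DAF, replicate 1 included. The S24 gene gene16984 had 329.9, 305 and 375 FPKM at 27 DAF and 163, 78.4 and 89.2 FPKM at 17 DAF (1.67 ± 0.35, adjusted p = 0.00257), and the L32 gene gene13405 had 499, 487 and 645 FPKM at 27 DAF and 289, 121 and 124 FPKM at 17 DAF (1.72 ± 0.38, adjusted p = 0.00391). The other S6 gene of high level, gene44855, had 1125, 980.0 and 1221 FPKM at 27 DAF and 565, 196 and 216 FPKM at 17 DAF (1.93 ± 0.41, adjusted p = 0.0028). For each of these last 3 genes replicate 1 at 17 DAF was well above the others of its group. With that replicate alone for 17 DAF the differences shrank to 1.03, 0.895 and 0.966 for S24, L32 and S6. The call of gene44855 was lost in a limma fit of these 6 libraries (adjusted p = 0.0541). The small L31 gene Helianthus_annuus_newGene_20299 had 5.12, 4.08 and 3.55 FPKM at 27 DAF and 0.218, 0.509 and 0.689 FPKM at 17 DAF and reached the minimum in this group alone, so no test of it is given.

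The 5 members called lower at 27 DAF in L-1-OL-1 included the single L3 gene, gene46722, whose protein reaches toward the centre where peptide bonds form. It had 8.36, 3.43 and 5.47 FPKM at 27 DAF and 22.7, 15.1 and 17.8 FPKM at 17 DAF (-1.58 ± 0.36, adjusted p = 0.00423). The S13 gene gene17484 had 8.49, 10.9 and 11.1 FPKM at 27 DAF and 25.8, 23.5 and 22.1 FPKM at 17 DAF (-1.16 ± 0.30, adjusted p = 0.00907). The groups did not overlap in either gene. The L34 gene gene66916 had 1.13, 0.656 and 0.234 FPKM at 27 DAF and 4.47, 27.2 and 6.31 FPKM at 17 DAF (-2.67 ± 0.52, adjusted p = 0.00171), with replicate 2 at 17 DAF far above the rest. The L17 gene gene52720, for a protein that lines the tunnel through which the new chain leaves in yeast, and the L34 gene gene29796 had differences of -1.13 ± 0.40 and -1.06 ± 0.36 (adjusted p = 0.04 and 0.034). Neither call held: both were lost without replicate 1 of L-1-OL-1 at 17 DAF (adjusted p = 0.131 and 0.106) and without replicate 1 (0.142 and 0.098) or 2 (0.08 and 0.0663) at 27 DAF, gene29796 also without replicate 3 at 27 DAF (0.0704), and gene52720 also without replicate 2 at 17 DAF (0.0595), replicate 3 of 86-1 at 17 DAF (0.0522) or replicate 2 of 86-1 at 27 DAF (0.0539).

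**Figure D2:**
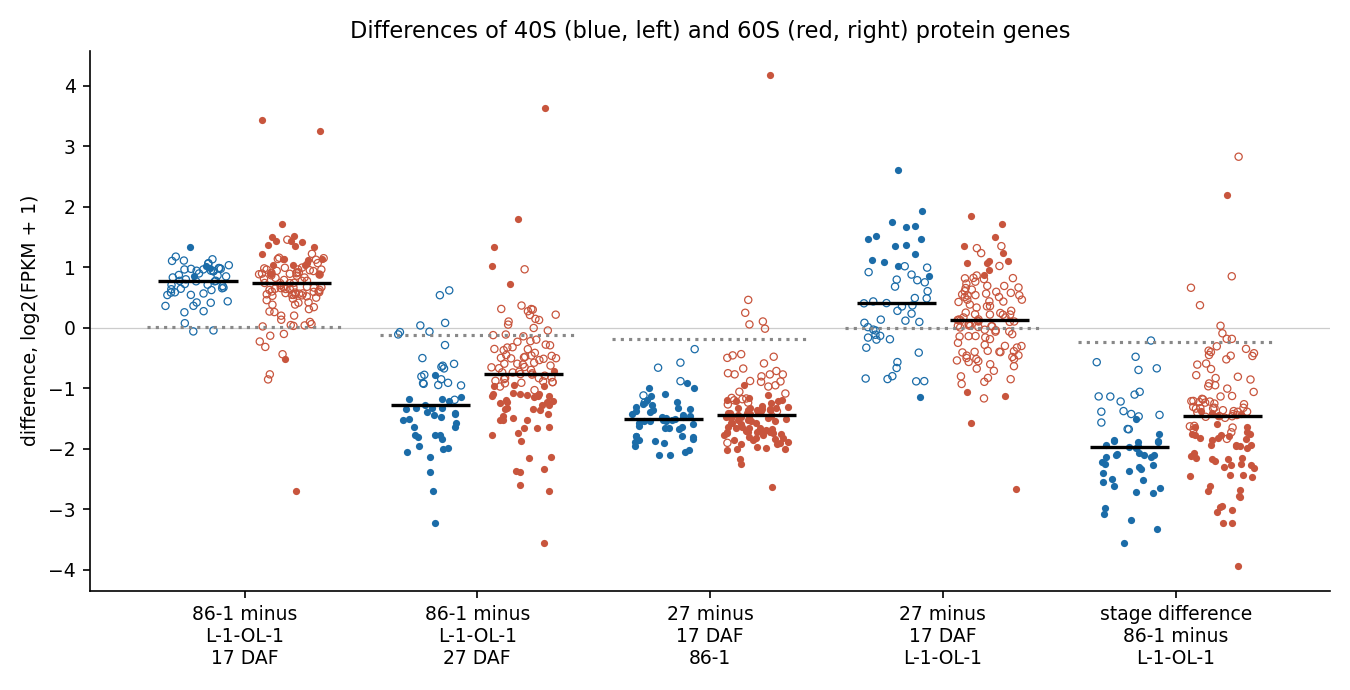
Log2 differences on log2(FPKM + 1) of the 55 genes for 40S proteins (blue) and 115 genes for 60S proteins (red) in the 5 comparisons; the 2 NMD3 genes are not drawn. Filled points are called, black bars are medians and dotted lines the median of all tested genes; the medians are -1.52 and -1.45 for the stage difference in 86-1, and 0.40 and 0.13 for that in L-1-OL-1.

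The stage changes of the 2 cultivars were compared directly by the interaction, the stage difference in 86-1 minus that in L-1-OL-1. Of the 172 genes 88 were called lower and 1 higher, where 13.6% of all tested genes were called lower and 8.50% higher, and the median was -1.65 against -0.23 over all tested genes. The 40S genes had 37 of 55 called lower (median -1.97) and the 60S genes 51 of 115 lower and 1 higher (median -1.46). The stage differences of the 2 cultivars share no library. In 107 members (62.2%) the difference was negative in 86-1 and positive in L-1-OL-1, against 26.7% of all tested genes, and 19 members were called in both with these signs, against 0.583%. Another 4 were called lower in both cultivars, against 6.23% of all tested genes, and 0 higher in both. Without replicate 1 of L-1-OL-1 at 17 DAF these counts were 133, 51 and 2 members, against 25.9%, 1.14% and 6.44% of all tested genes. With that replicate as the only library of its group they were 51, 3 and 36 members, or 29.7%, 1.74% and 20.9%, against 30.3%, 0.263% and 9.10% of all tested genes, so that the larger share of opposite signs was not seen there.

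**Figure D3:**
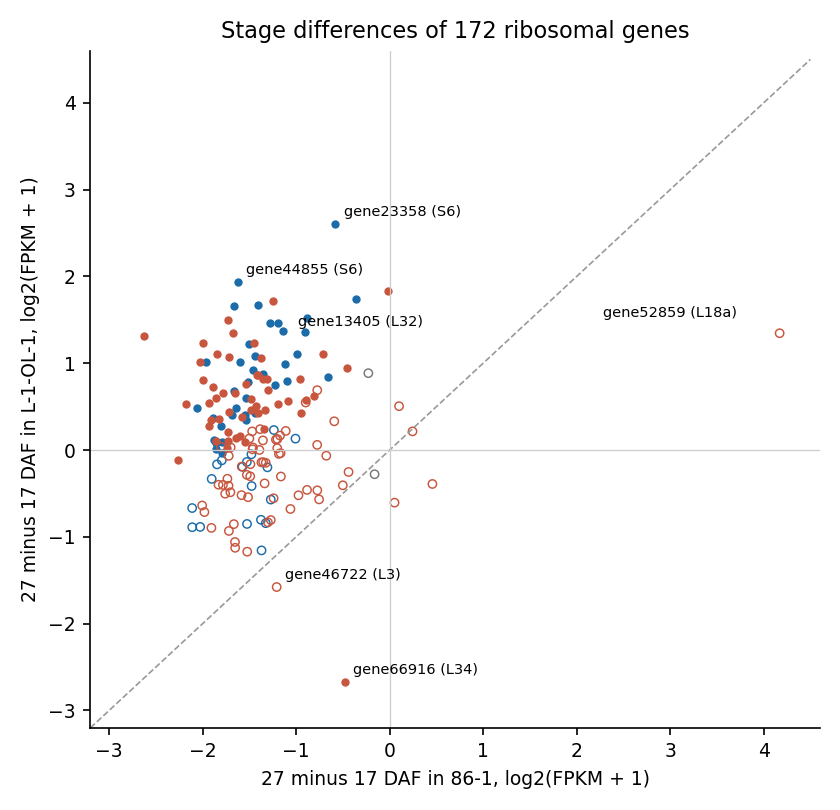
Each of the 172 genes by its stage difference (27 minus 17 DAF, log2(FPKM + 1)) in 86-1 on the x axis and in L-1-OL-1 on the y axis, which share no library; blue is 40S, red 60S and grey NMD3, and filled points are called in the interaction. Most points lie above the dashed line of equal change, with gene66916 for L34 and gene52859 for L18a below it.

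The S3a gene gene75943, for a platform protein next to where initiation factor eIF3 sits, showed the pattern at a high level. It had 68.1, 89.2 and 105 FPKM at 27 DAF and 209, 360.2 and 277 FPKM at 17 DAF in 86-1. In L-1-OL-1 it had 429, 391 and 551 FPKM at 27 DAF and 244, 103 and 116 FPKM at 17 DAF (interaction -3.32 ± 0.53, adjusted p = 0.00146). It was thus lowest at 27 DAF in 86-1 and highest at 27 DAF in L-1-OL-1. The L27 gene gene30754 had 50.8, 77.9 and 88.5 FPKM at 27 DAF and 195, 292 and 230.0 FPKM at 17 DAF in 86-1. In L-1-OL-1 it had 287, 337 and 484 FPKM at 27 DAF and 321, 88 and 71.9 FPKM at 17 DAF (interaction -3.23 ± 0.70, adjusted p = 0.00788), with replicate 1 at 17 DAF inside the range of 27 DAF. The L24 gene gene55886, 1 of 4 for a protein that bridges the subunits, behaved likewise in its interaction (-3.23 ± 0.72, adjusted p = 0.00872), as did both S6 genes named above (-3.56 ± 0.57, adjusted p = 0.00163 for gene44855 and -3.19 ± 0.44, adjusted p = 0.000694 for gene23358) and Helianthus_annuus_newGene_18382 (-3.94 ± 0.70, adjusted p = 0.0028). None of these 6 calls was lost without any 1 library. The single positive call, L34 gene66916 (2.19 ± 0.73, adjusted p = 0.0498), was lost in 10 of the 12 fits that left out 1 library, held only without replicate 1 of L-1-OL-1 at 17 DAF or replicate 3 of that group, and reached adjusted p = 0.116 without replicate 3 of 86-1 at 17 DAF.

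The number called in the interaction was 0 higher and 55 lower without replicate 2 or 3 of 86-1 at 17 DAF, replicate 2 of 86-1 at 27 DAF, replicate 2 of L-1-OL-1 at 17 DAF or replicate 3 of L-1-OL-1 at 27 DAF. It was 0 and 56 without replicate 1 of 86-1 at 27 DAF and 0 and 59 without replicate 2 of L-1-OL-1 at 27 DAF. Without replicate 1 of L-1-OL-1 at 17 DAF, 2 were called higher and 135 lower, with a median of -2.002. With that replicate as the only one of its group, 0 were called higher and 41 lower, with a median of -0.92.

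Between the cultivars at 27 DAF the set was lower in 86-1. Of the 172 genes 79 were called lower and 5 higher in 86-1 than in L-1-OL-1, where 48.3% of all tested genes were called, 27.1% lower and 21.2% higher, and the median difference was -0.91 against -0.12 over all tested genes. Quantile normalization gave a median of -0.49 with 53 called lower and 7 higher. The 40S genes had 33 of 55 called lower, with a median of -1.28. The 60S genes had 44 of 115 lower and 5 higher with a median of -0.77. In 117 of the 172 every 86-1 library was below every L-1-OL-1 library, which held for 34.5% of all tested genes. The 86-1 libraries are those of the stage comparison too, so these results are not independent of each other, and 54 of the 79 lower calls held whichever of the 12 libraries was left out.

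S6 was the member with the largest 40S differences. At 27 DAF gene23358 had 64.2, 71.7 and 96.9 FPKM in 86-1 and 820.4, 673 and 696 FPKM in L-1-OL-1 (-3.23 ± 0.31, adjusted p = 4.81e-06). The more abundant gene44855 had 152, 144 and 216 FPKM in 86-1 and 1125, 980.0 and 1221 FPKM in L-1-OL-1 (-2.71 ± 0.41, adjusted p = 0.000166). The 2 lesser genes for S6, named here after their values were seen, went the same way: gene63281 had 30.1, 37.9 and 54.8 FPKM in 86-1 and 151, 170.5 and 184 FPKM in L-1-OL-1 (-2.05 ± 0.43, adjusted p = 0.00202), and gene35559 had 12.2, 16.6 and 27.1 FPKM in 86-1 and 40.6, 49.8 and 60.5 FPKM in L-1-OL-1 (-1.44 ± 0.32, adjusted p = 0.00273). All 4 S6 genes were therefore lower in 86-1 with no overlap of libraries, and their 4 calls held without any 1 library. At 17 DAF none of the 4 was called (log2 differences of -0.06 to 0.85). Outside S6, L32 gene13405 had 63.6, 91.3 and 96.5 FPKM in 86-1 and 499, 487 and 645 FPKM in L-1-OL-1 at 27 DAF (-2.69 ± 0.38, adjusted p = 0.000108). The L28 gene Helianthus_annuus_newGene_22476 had 10.4, 13.3 and 18.8 FPKM in 86-1 and 97.7, 82.1 and 88.7 FPKM in L-1-OL-1 (-2.61 ± 0.35, adjusted p = 7.28e-05). Helianthus_annuus_newGene_18382, described as L28 but also as the yeast assembly factor Mak16, differed by -3.56 ± 0.50, adjusted p = 9.63e-05. The L31 gene Helianthus_annuus_newGene_20299 was listed at 0 in all 3 libraries of 86-1 and had 5.12, 4.08 and 3.55 FPKM in those of L-1-OL-1, the group through which it reached the minimum. Of the most abundant members S14, S8, S17 and SA were also called lower in 86-1 (-1.44 ± 0.30, -1.65 ± 0.35, -1.64 ± 0.34 and -1.78 ± 0.37), calls that held without any 1 library. The abundant L10 gene gene1928 was called lower too (-1.14 ± 0.42, adjusted p = 0.0408), but the call was lost in 7 of the 12 fits without 1 library: at 27 DAF without replicate 1 or 2 of 86-1 (0.114 and 0.107) or any replicate of L-1-OL-1 (0.0698 to 0.119), and at 17 DAF without replicate 2 or 3 of 86-1 (0.0517 and 0.0551). S27a gene29557 and L19 gene120 had -0.65 ± 0.49 and -0.74 ± 0.35 (adjusted p = 0.298 and 0.103).

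Only the 60S held members called higher in 86-1 at 27 DAF, and 3 of the 5 had low levels. The L3 gene gene46722 had 70.1, 78.1 and 88.3 FPKM in 86-1 and 8.36, 3.43 and 5.47 FPKM in L-1-OL-1 (3.62 ± 0.36, adjusted p = 5.55e-06), the widest gap of the set. The L18a gene gene74529 had 12, 15.4 and 19.4 FPKM in 86-1 and 2.36, 3.97 and 5.3 FPKM in L-1-OL-1 (1.79 ± 0.36, adjusted p = 0.00149). The groups stood far apart in L3 and apart in L18a, and both calls held without any 1 library. The L7a gene Helianthus_annuus_newGene_10471 had 1.92, 3.68 and 3.97 FPKM in 86-1 and 0.866, 1.32 and 0.874 FPKM in L-1-OL-1, and the partial L12 gene Helianthus_annuus_newGene_22597 had 0.954, 1.69 and 2.78 FPKM in 86-1 and 0.535, 0.624 and 0.809 FPKM in L-1-OL-1. Both reached the minimum only through 86-1, so their higher calls are no support for a difference. The L34 gene gene66916 (1.33 ± 0.52, adjusted p = 0.0496) lost its call in 9 of the 12 fits without 1 library. These were the fits without any replicate of 86-1 at 17 DAF (0.0544 to 0.0634), of 86-1 at 27 DAF (0.0559 to 0.133) or of L-1-OL-1 at 27 DAF (0.0571 to 0.15).

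Genes of seed storage proteins also differed at 27 DAF. The summed FPKM of storage protein genes came to 10.4% to 34.4% of the total in 86-1 against 0.853% to 2.75% in L-1-OL-1, with 26 of 43 called higher and 2 lower in 86-1 (21 to 31 and 2 without any 1 library). With these genes left out of the total, the ribosomal sum was 1.89% to 2.09% of it in 86-1 and 3.56% to 4.51% in L-1-OL-1. Genes of dividing cells took 0.298% to 0.414% in 86-1 and 0.299% to 0.363% in L-1-OL-1, and these ranges overlap. Of 215 such genes 39 were called higher and 26 lower, shares below the 21.2% and 27.1% of all tested genes, and 99 and 29 in a fit of these 6 libraries (27 to 58 and 19 to 28 without any 1 library, 58 higher without replicate 1 of L-1-OL-1 at 17 DAF). The part of either list in the ribosomal result was not tested.

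L-1-OL-1 at 27 DAF also differed in the ratio of the summed 40S genes to the summed 60S genes of the set. Proteins that the rule missed, such as those of the 60S stalk, are not in these sums. The ratio thus covers only the genes caught and is not the balance of whole subunits. The summed FPKM of the 40S genes over that of the 60S genes was 0.601, 0.569 and 0.576 in 86-1 at 27 DAF and 0.622, 0.576 and 0.593 in 86-1 at 17 DAF. In L-1-OL-1 the ratio was 0.923, 0.817 and 0.803 at 27 DAF and 0.606, 0.602 and 0.584 at 17 DAF. All 3 libraries of L-1-OL-1 at 27 DAF thus exceeded the other 9. S6 genes made up 18.2% to 20.5% of the 40S sum in those 3 libraries and 7.44% to 10.8% in the other 9. With S6 left out, those 3 libraries had ratios of 0.657 to 0.734 and the other 9 had 0.521 to 0.571. The stretch of protein matched in the database had a median length of 153 residues for 40S genes and 124 for 60S genes, and the 27 DAF difference between cultivars had a median of -1.35 in 40S genes matched over more than 150 residues and -0.95 in the others, against -0.86 and -0.73 in 60S genes. The part of gene length in the ratio was not tested further.

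At 17 DAF most members had a higher mean in 86-1, but few were called. Of the 172 genes 26 were called higher and 3 lower in 86-1, where 15.6% of all tested genes were called higher and 11.4% lower, so the share called higher, 15.1%, was near that of all tested genes. The median difference was 0.75 against 0.00466 over all tested genes, and 159 differences were positive. Replicate 1 of L-1-OL-1 decides how this is read. Without it 113 members were called higher and 3 lower with a median of 1.10, and with it as the only library of its group the median was -0.00101. The share of all tested genes called without it is not given, so the 113 cannot be set against such a share. Leaving out others moved the counts too, to 44 higher and 2 lower, 5 and 1, and 5 and 1 without replicates 1, 2 and 3 of 86-1 at 17 DAF, to 4 and 2 and to 6 and 2 when L-1-OL-1 lacked replicate 2 or 3, and to 14 and 2 and 14 and 3 without replicate 2 of 86-1 and of L-1-OL-1 at 27 DAF, which enter only through the shared estimate of the spread. A fit of the 6 libraries alone called 4 higher and 1 lower. Genes of dividing cells had 87 of 215 called higher and 12 lower in 86-1. Without replicates 1, 2 and 3 of 86-1 the counts were 126 and 9, 30 and 8, and 44 and 13. For L-1-OL-1 they were 125 and 18, 35 and 10, and 43 and 10 in the same order, and with its replicate 1 alone 10 and 10. A fit of these 6 libraries called 19 higher and 11 lower. Their summed share of the FPKM total was 0.658% to 1.68% in 86-1 against 0.493% to 1.00% in L-1-OL-1, and their part in the result was not tested.

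The calls at 17 DAF that held without any 1 library were 3 higher and 1 lower, of which 1 higher and the lower one were genes that reached the minimum only through 1 cultivar. The L18a gene gene74529 had 20.8, 55.5 and 32.9 FPKM in 86-1 and 2.83, 1.53 and 2.38 FPKM in L-1-OL-1 (3.44 ± 0.36, adjusted p = 2.32e-05). The L3 gene gene46722 had 126, 302 and 161 FPKM in 86-1 and 22.7, 15.1 and 17.8 FPKM in L-1-OL-1 (3.25 ± 0.36, adjusted p = 3.08e-05). Both also kept a higher call at 27 DAF, and even replicate 1 of L-1-OL-1 lay far below 86-1. The L7a gene Helianthus_annuus_newGene_10471, which needed 86-1 to reach the minimum, had 1.93, 2.84 and 3.9 FPKM in 86-1 and 0.349, 0.219 and 0.724 FPKM in L-1-OL-1. The lower call was the NMD3 gene Helianthus_annuus_newGene_29023, with 0, 0 and 0.397 FPKM in 86-1 and 3.2, 3.41 and 5.42 FPKM in L-1-OL-1. It was listed at 0 in all 3 libraries of 86-1 at 27 DAF and needed L-1-OL-1 to reach the minimum. L37a gene73949 (1.51 ± 0.41, adjusted p = 0.0171), L30 gene12706 (1.5 ± 0.40, adjusted p = 0.0142) and L39 gene20168 (1.43 ± 0.45, adjusted p = 0.0335), the last a small protein of the exit tunnel in yeast, were the next largest. All of these 3 calls were lost without replicate 2 of 86-1 (adjusted p = 0.0856, 0.0564 and 0.135) and, of L-1-OL-1, without replicate 2 (0.0693, 0.0713 and 0.134) or 3 (0.0669, 0.0593 and 0.123). Those of L37a and L39 were lost without replicate 3 of 86-1 as well (0.0554 and 0.0822). The L31 gene Helianthus_annuus_newGene_20299 had 0, 0 and 0.039 FPKM in 86-1 and 0.218, 0.509 and 0.689 FPKM in L-1-OL-1, with no test given for the reason above.

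Genes placed under the same protein name could move in opposite directions, and L18a was the clearest case. A description that reads L18a-like protein would be placed under L18a too, so these genes need not all encode the same protein. Its gene gene52859 had 113, 134 and 241 FPKM at 27 DAF and 16.2, 3.55 and 7.09 FPKM at 17 DAF in 86-1 (4.17 ± 0.73, adjusted p = 0.00256), a call that held without any 1 library. In L-1-OL-1 it had 171, 144 and 114 FPKM at 27 DAF and 16.4, 48.2 and 202 FPKM at 17 DAF (1.35 ± 0.73, adjusted p = 0.156), with replicate 1 near the low level of 86-1 at 17 DAF and replicate 3 above the range of 27 DAF. The 2 other abundant L18a genes fell in 86-1, gene80195 with 60.3, 60.7 and 90.6 FPKM at 27 DAF and 146, 271 and 231 FPKM at 17 DAF (-1.58 ± 0.33, adjusted p = 0.00654), and gene67852 with 48.5, 55.4 and 63 FPKM at 27 DAF and 130.3, 272 and 211 FPKM at 17 DAF (-1.80 ± 0.47, adjusted p = 0.0194). That of gene67852 was lost without replicate 2 or 3 of 86-1 at 17 DAF (0.0943 and 0.0733) or replicate 1 or 2 at 27 DAF (0.0731 and 0.0561). At 17 DAF gene52859 was the L18a gene called lower in 86-1 (-2.70 ± 0.73, adjusted p = 0.0162), a call lost without replicate 2 (0.082) or 3 (0.0521) of 86-1 and in a fit of those 6 libraries (0.0781), while gene74529 was higher as given above.

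**Figure D4:**
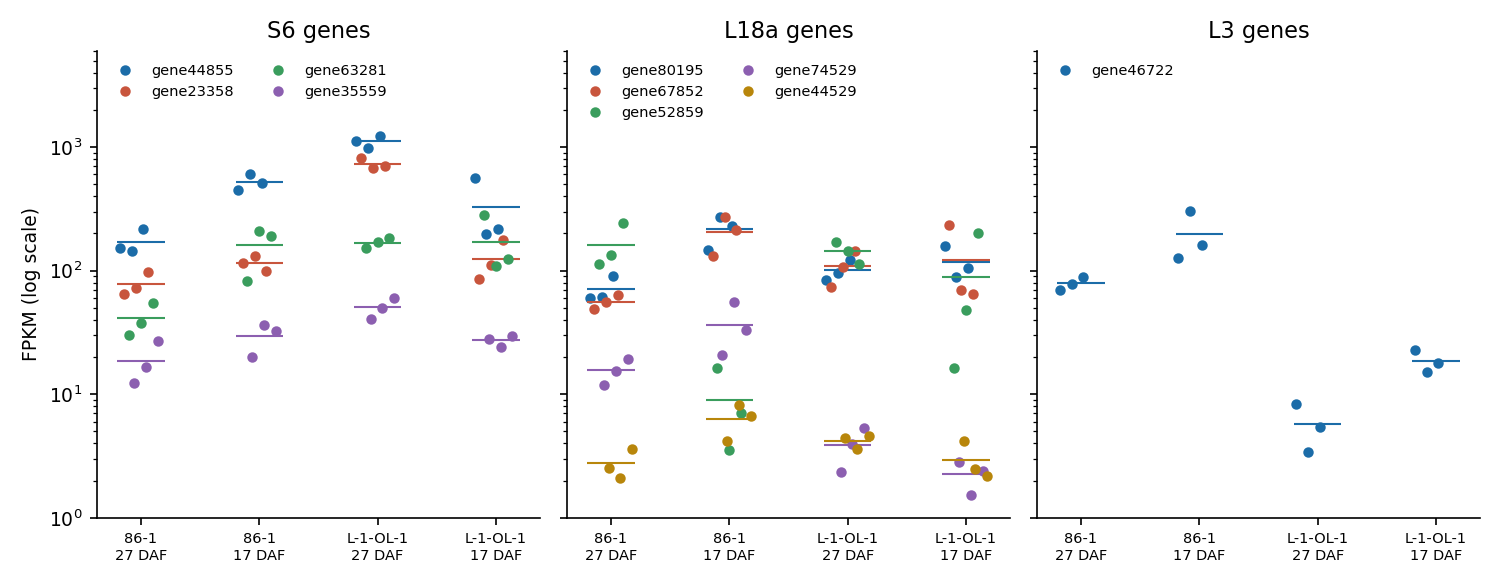
FPKM on a log axis of the 4 S6 genes, the 5 L18a genes and the single L3 gene in each library (points) with group means (bars). S6 gene44855 averages 171 ± 39.2 and 523 ± 79.3 FPKM in 86-1 at 27 and 17 DAF and 1109 ± 122 and 326 ± 207 FPKM in L-1-OL-1 (SD, n = 3 each), and L3 gene46722 is lower in every L-1-OL-1 library than in any of 86-1.

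The share of each gene in the summed FPKM of its protein does not depend on the scaling between libraries. Of the 41 proteins with several genes, 22 had the same leading gene in all 4 groups and 17 in all 12 libraries. By group means the leading gene differed between the cultivars for 14 proteins at 27 DAF and for 8 at 17 DAF, and between the stages for 9 in 86-1 and for 16 in L-1-OL-1. The 8 and the 9 include L12, whose genes were low (summed group means of 0.837 to 2.27 FPKM) and reached the minimum only through 86-1. Without replicate 1 of L-1-OL-1 at 17 DAF, 21 proteins had the same leading gene in all 4 groups, and it differed for 11 between the cultivars at 17 DAF and for 15 between the stages in L-1-OL-1. In L18a, gene52859 held 47.7%, 50.05% and 57.7% of the sum at 27 DAF and 5.11%, 0.582% and 1.45% at 17 DAF in 86-1, so that the largest share passed to it. In L32, gene13405 at 27 DAF held 27.4%, 31% and 24.8% in 86-1 and 61.8%, 59% and 63% in L-1-OL-1. In S21, gene48172 at 27 DAF held 28.6%, 27.5% and 29.2% in 86-1 and 54.5%, 48.2% and 45.2% in L-1-OL-1, and gene5128 held 41.9%, 45.1% and 40.4% in 86-1 and 20.7%, 26.1% and 30.8% in L-1-OL-1. At this stage gene13405 and gene48172 thus took larger shares in L-1-OL-1, and gene5128 a smaller one, with no overlap of libraries.

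Shares also differed between the stages within L-1-OL-1. For S26, gene14484 held 55.7%, 48.2% and 47.2% at 27 DAF and 21.1%, 28.4% and 29.96% at 17 DAF. For L27, gene30754 held 41.2%, 44.3% and 48.2% at 27 DAF and 30.6%, 22.8% and 16.4% at 17 DAF. For L28, gene51123 held 18.8%, 28.6% and 23.1% at 27 DAF and 48.7%, 41.6% and 41% at 17 DAF, a smaller share at 27 DAF. For S24, gene40047 held 9.41%, 15% and 15.3% at 27 DAF and 41.8%, 30.9% and 28.4% at 17 DAF. These proteins were picked for display after the shares had been seen, with no test, and genes that share a best match (gene51123 and gene44661 of L28) may have exchanged reads.

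**Figure D5:**
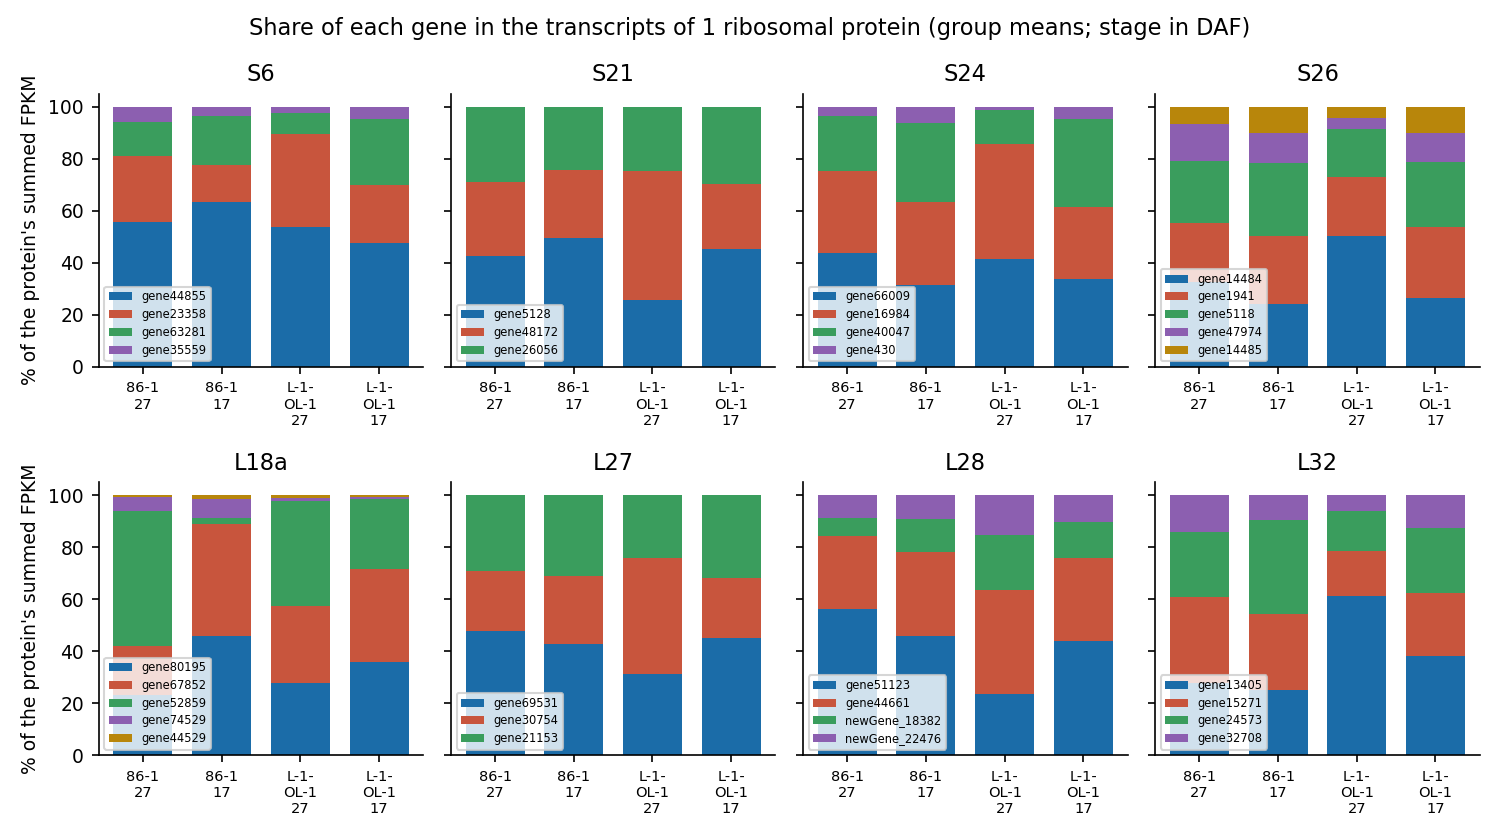
Mean share of each gene (colours) in the summed FPKM of its protein, for 8 proteins with several genes and the 4 groups, in percent. Shares of L18a gene52859 are 51.8% and 2.38% in 86-1 at 27 and 17 DAF, and those of L32 gene13405 at 27 DAF are 27.7% in 86-1 and 61.2% in L-1-OL-1.

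Within L34 genes were called in both directions between the cultivars at 27 DAF, but each of these calls was lost without some single libraries. The most abundant, gene54075, had 48.1, 57.5 and 59 FPKM in 86-1 and 104, 114 and 146 FPKM in L-1-OL-1 (-1.12 ± 0.41, adjusted p = 0.0406), and gene44255 had 2.41, 1.99 and 2.78 FPKM in 86-1 and 3.76, 4.56 and 5.58 FPKM in L-1-OL-1 (-0.73 ± 0.26, adjusted p = 0.0347), against the higher call of gene66916. Both lower calls were lost without replicate 1 or 2 of 86-1 at 27 DAF (0.112 and 0.0827 for gene54075, 0.0712 and 0.12 for gene44255) and without replicate 2 or 3 of L-1-OL-1 at 27 DAF (0.0818 and 0.125, 0.0816 and 0.13), and gene54075 also without replicate 3 of 86-1 or replicate 1 of L-1-OL-1 at 27 DAF or replicate 3 of 86-1 at 17 DAF (0.0546 to 0.0663). The other 2, gene29796 and gene33183, had 0.36 ± 0.36 and -0.37 ± 0.42 (adjusted p = 0.434 and 0.484). In L7a the higher call was that of Helianthus_annuus_newGene_10471, which reached the minimum only through 86-1 and so is no support for opposite directions. The L7a gene gene20041 had 4.29, 5.46 and 9.88 FPKM in 86-1 and 17.9, 22.9 and 25.1 FPKM in L-1-OL-1 (-1.66 ± 0.55, adjusted p = 0.0252). At 27 DAF, dropping replicate 1 or 2 of 86-1 ended this call (0.0935 and 0.0715), and for L-1-OL-1 dropping replicate 2 (0.0654) or 3 (0.0722) did so too.

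S27a and L40 are made as fusions with ubiquitin, which is cut off to tag other proteins, and their 7 genes share best matches within each protein. All 3 S27a genes and 3 of the 4 L40 genes were called lower at 27 DAF than at 17 DAF in 86-1, against 14.1% of all tested genes. The L40 gene gene25065 had 102, 132 and 178 FPKM at 27 DAF and 354, 456 and 375 FPKM at 17 DAF (-1.55 ± 0.34, adjusted p = 0.00785), a call that held without any 1 library. The differences of the L40 genes gene17140 and gene54205 were -1.72 ± 0.38 and -2.005 ± 0.45 (lost without replicate 2 of 86-1 at 17 DAF, 0.0512 and 0.0514), and the low gene70619 had -0.75 ± 0.50, adjusted p = 0.348. The S27a genes gene29557, gene54520 and gene80980 had -1.85 ± 0.49, -1.89 ± 0.48 and -1.38 ± 0.40, and all 3 calls were lost without replicate 2 or 3 of 86-1 at 17 DAF or replicate 1 or 2 at 27 DAF (0.0519 to 0.149). At 27 DAF none of the 7 was called between the cultivars (log2 differences of -1.19 to 0.31), where 48.3% of all tested genes were called.

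The stalk of the 60S, built from P0 with P1, P2 and in plants P3, draws in the elongation factors. Its genes are described as acidic ribosomal proteins and so lay outside the rule, and 5 were tested. In 86-1 4 of the 5 were called lower at 27 DAF than at 17 DAF, against 14.1% of all tested genes. P0 gene56814 had 70.8, 70.3 and 100.4 FPKM at 27 DAF and 293, 544 and 433 FPKM at 17 DAF in 86-1 (-2.35 ± 0.46, adjusted p = 0.00477). P3 gene42404 had 98, 119 and 188 FPKM at 27 DAF and 316, 480.0 and 379 FPKM at 17 DAF in 86-1 (-1.56 ± 0.35, adjusted p = 0.00886, lost without replicate 2 at 17 DAF, 0.0512). The stage pattern of P3 was opposite in L-1-OL-1, with 704, 471 and 579 FPKM at 27 DAF and 264, 159 and 237 FPKM at 17 DAF (1.42 ± 0.35, adjusted p = 0.00656, and 0.0615 with replicate 1 as the only library at 17 DAF), and its interaction was -2.98 ± 0.49, adjusted p = 0.00181. P0 had 0.08 ± 0.46, adjusted p = 0.922 there. The P1 gene gene43564 and the acidic family gene gene56458 differed by -1.59 ± 0.40, adjusted p = 0.0156 and -2.15 ± 0.41, adjusted p = 0.00376 in 86-1, and the first of these calls was lost without replicate 2 or 3 at 17 DAF or replicate 1 or 2 at 27 DAF (0.0538 to 0.0773). The low P0 gene Helianthus_annuus_newGene_10222 had 0.50 ± 0.26, adjusted p = 0.216 in 86-1. In L-1-OL-1 gene56458 was called lower at 27 DAF too (-1.29 ± 0.41, adjusted p = 0.0236). That call was lost without replicate 1 of L-1-OL-1 at 17 DAF (0.0731) or its replicate 1 or 3 at 27 DAF (0.0573 and 0.0825). There Helianthus_annuus_newGene_10222 was called higher (0.76 ± 0.26, adjusted p = 0.033), lost without replicate 1 or 2 at either stage (0.0789 to 0.1). The P1 gene had 0.29 ± 0.40, adjusted p = 0.583.

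Other genes of protein synthesis were counted beside the set, in lists chosen by words in the descriptions. Between the cultivars at 27 DAF, where 27.1% of all tested genes were called lower and 21.2% higher in 86-1, 43 of 57 ribosome biogenesis factors were called lower and 1 higher (median -1.31, 31 to 46 lower without any 1 library). Of 79 translation initiation factors 45 were called lower and 1 higher (-0.90, 38 to 47 lower), and of 85 aminoacyl-tRNA synthetases, which load transfer RNAs, 45 lower and 7 higher (-0.77, 33 to 51 lower). Of 14 elongation factors 8 were called lower and 1 higher (-0.88), and only 5 lower at 27 DAF once replicate 1 of 86-1, or replicate 2 or 3 of the other cultivar, was dropped. Quantile normalization gave medians of -1.03, -0.57, -0.68 and -0.64 in this order. Between the stages in L-1-OL-1, where 20.4% of all tested genes were called higher and 22.3% lower at 27 DAF, 28 biogenesis factors were called higher and 0 lower (23 to 32 higher without any 1 library), 30 initiation factors higher and 2 lower (20 to 35 higher) and 29 synthetases higher and 4 lower (22 to 37 higher). Without replicate 1 at 17 DAF these counts were 27 and 0, 23 and 2, and 24 and 4. The 4 elongation factors called higher there were 1 without any 1 replicate of L-1-OL-1 at 27 DAF and 2 without replicate 1 or 2 at 17 DAF. In 86-1, where 14.1% of all tested genes were called lower and 4.62% higher at 27 DAF, 12 initiation factors were called lower and 0 higher (median -0.29), a share near that of all tested genes. Without replicates 1, 2 and 3 of 86-1 at 17 DAF 24, 2 and 3 were called lower, without its replicates 1 and 2 at 27 DAF 3 and 5, and without replicate 2 of L-1-OL-1 at 27 DAF 7. The counts for the other lists in 86-1 rested on single libraries too. Biogenesis factors had 1 called lower and 0 higher (-0.37), with 12 lower without replicate 1 at 17 DAF and 6 and 7 higher under median-of-ratios scaling and quantile normalization. Elongation factors had 6 called lower and 0 higher (-0.80), with 9, 2 and 3 lower without replicates 1, 2 and 3 at 17 DAF. Synthetases had 3 called lower and 2 higher (-0.17), with 15 lower without replicate 1 at 17 DAF, 0 lower without replicates 2 or 3 there, and 8 lower without replicate 3 at 27 DAF. Whether these lists differ from the ribosomal proteins in their stage change was not tested.

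Genes for ribosomal proteins of plastids and mitochondria were counted apart. Of 20 genes for plastid ribosomal proteins 2 were called higher and 0 lower at 27 DAF than at 17 DAF in 86-1 (median 0.77), and 1 higher and 0 lower in L-1-OL-1 (0.37). Of all tested genes 4.62% were called higher and 14.1% lower in 86-1, and 20.4% and 22.3% in L-1-OL-1. Without any 1 library 0 to 5 were called higher and 0 to 1 lower in 86-1 and 0 to 6 higher in L-1-OL-1, and quantile normalization called 7 higher in 86-1 with a median of 1.08. Their sum was 0.0367% to 0.0902% of the FPKM total at 27 DAF and 0.0240% to 0.0398% at 17 DAF in 86-1. The 2 genes for mitochondrial ribosomal proteins and the 3 for RNA polymerase I, which copies ribosomal RNA, were too few to describe as groups. Neither mitochondrial gene was called in any comparison, and the polymerase gave 2 lower calls in 86-1 against L-1-OL-1 at 27 DAF. In that comparison 27.1% of all tested genes were called lower.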

How the data were processed

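Seeds of 2 sunflower cultivars at 27 and 17 DAF were sequenced as total RNA (RNAprep pure Plant Kit, Illumina NovaSeq, per the labels' protocols). The authors deposited FPKM per gene for 12 libraries and an annotation with a match score per gene. The submitters' processing notes name RSEM 1.2.12, DESeq2 1.4.5, Bowtie2 2.2.5 and HISAT2 2.0.4 with no roles. The genome build and annotation source are not given in the sources read. The annotation table as read here ends at 65535 rows, so genes without a description there could not become members. The score was not used in any test. Members and lists were chosen with earlier results of these data known.

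Genes with FPKM of at least 1 in at least 3 libraries (30020) were fitted with limma 3.58.1 in R 4.3.3 (empirical Bayes with a mean-variance trend) on log2(FPKM + 1), with 4 group means over all 12 libraries, which share 1 estimate of the spread, and Benjamini-Hochberg adjustment over all tested genes at 0.05. The script was tested on simulated data. The text names the 6 largest called differences in each direction per comparison among members whose libraries do not overlap between groups (for the interaction no such rule), the 8 most abundant members, the P-stalk, S27a and L40 genes, proteins with genes called in both directions, and the genes next to the FPKM minimum. The alternatives changed the pseudocount, filter, scaling, members, libraries, spread model and replicate block. Read depth is unknown, so no counting error is given.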

Additional observations from a re-analysis of the deposited data

Results flagged for a closer look

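The stage change differed between the cultivars by the interaction test in limma for 89 of the 172 ribosomal genes, and this tested difference is why they are listed for a closer look. The largest were the interaction differences of Helianthus_annuus_newGene_18382 (L28, also described as Mak16) at -3.94, gene44855 (S6) at -3.56, gene75943 (S3a) at -3.32, gene55886 (L24) at -3.23, gene30754 (L27) at -3.23 and gene23358 (S6) at -3.19 on the log2(FPKM + 1) scale. A difference in the opposite direction was called for gene66916 (L34) at 2.19, and that call did not hold without most single libraries.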

How the results depend on the processing

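The main counts of called members, out of 172, were 29 for 86-1 against L-1-OL-1 at 17 DAF, 84 for the same at 27 DAF, 131 for 27 against 17 DAF in 86-1, 32 for the same stages in L-1-OL-1, and 89 in the interaction test. Of all tested genes 27.0%, 48.3%, 18.8%, 42.6% and 22.1% were called in the same order. In that order, leaving out 1 library in turn gave counts of 6 to 116, 58 to 110, 32 to 150, 18 to 58 and 55 to 137, and median log2 differences of 0.52 to 1.10, -1.07 to -0.75, -1.71 to -1.25, -0.01 to 0.61 and -2.002 to -1.42. The difference in summed share of the FPKM total was 1.09 to 2.36, -2.51 to -2.07, -3.39 to -2.33 and 0.647 to 1.86 percentage points in the 4 comparisons of groups. With replicates 2 and 3 of L-1-OL-1 at 17 DAF both left out, the median was -0.00101 between cultivars at 17 DAF and -0.55 between stages in L-1-OL-1, both of opposite sign to the main value, and -0.92 for the interaction, with 5 members called between cultivars at 17 DAF and 41 in the interaction. Between cultivars at 17 DAF, 10 were called among genes of mean FPKM of at least 5 and 5 in a fit of those 6 libraries. The 6-library fit called 19 between stages in L-1-OL-1. For the stages in 86-1, median-of-ratios scaling called 79 and quantile normalization 68. Quantile normalization gave a median of -0.999 there and -0.49 between cultivars at 27 DAF. The cause was not tested in these cases. Only the 74 members described as 40S or 60S gave 16, 33, 61, 12 and 34 calls and share differences of -0.91 points between cultivars at 27 DAF and -1.33 points between stages in 86-1, fewer genes being counted. The 153 members of mean FPKM of at least 10 with no other protein named, an alternative chosen after seeing the data, gave 23, 73, 126, 28 and 82. The counts of members by the signs and calls of both stage differences with and without replicate 1 of L-1-OL-1 at 17 DAF were also added after seeing the data.

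Deviations of same-numbered libraries correlated at -0.226 to 0.121, and those of differently numbered libraries at -0.280 to 0.299. With 3 libraries per group these values cannot decide whether the replicate numbers pair the samples. A fit with the number as a replicate block called 18, 75, 123, 31 and 83. Of the settings tried on single named genes, 1449 results kept their call and direction, 290 lost the call and 0 changed sign. The values are FPKM, so depth, and with it the counting error of low members, is unknown. Shared reads among close copies, the annotation read in part, and 3 libraries per group limit what single genes show.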
